A study of Mus musculus with 214 samples.

Results

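The 34 genes described here encode the constitutive proteasome of mouse liver. They were taken by symbol from both deposited expression tables, 34 of 18647 genes in the wild-type table and 34 of 19540 in the Mgmt-/- table. They were chosen with earlier results of these data known. By particle they were 7 alpha and 7 beta subunits of the 20S core, 6 ATPase and 11 non-ATPase subunits of the 19S regulatory particle, and 3 subunits of the PA28 activators. The wild-type (WT) mice carried RaDR+/+ and GPT+/+, a recombination reporter and a mutation reporter, and the Mgmt-/- mice carried both of these and lacked Mgmt in the whole body, all on a C57BL6 background. Pups of both sexes were injected intraperitoneally with N-nitrosodimethylamine (NDMA), a methylating agent that the liver activates, at 3.5 mg/kg on postnatal day 8 and 7 mg/kg on postnatal day 15, or with the same volumes of saline. Per the study's methods each litter was set at birth for saline or for NDMA, although controls are also called littermates there, and since the labels name no litter, its part in the results was not tested. Liver was taken 1, 2 or 5 days, 10 weeks or 10 months later, and polyadenylated RNA was read by 3′ digital gene expression, in which reads are counted at the end of each transcript. In order of time, WT held 26, 8, 8, 8 and 13 NDMA libraries and 21, 8, 7, 8 and 10 saline libraries, and Mgmt-/- held 12, 8, 8, 8 and 13 NDMA and 12, 7, 8, 8 and 12 saline libraries.

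The proteasome is the protease that takes apart proteins tagged with ubiquitin. Its 20S core is a stack of alpha and beta rings in which Psmb6, Psmb7 and Psmb5 carry the caspase-like, trypsin-like and chymotrypsin-like active sites, and its 19S cap binds, unfolds and feeds in the substrate. Under interferon these 3 catalytic subunits are replaced by Psmb9, Psmb10 and Psmb8, which together form the immunoproteasome, and the PA28 alpha and beta subunits Psme1 and Psme2 are interferon-inducible activators that open the core without ubiquitin. When the proteasome is overloaded, the transcription factor Nfe2l1 raises subunit transcription as a group, and Nfe2l2 does so under oxidative stress.

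The labels were checked before the values were compared. Mgmt itself read 13.0 to 130.0 normalized counts in the WT libraries and 0 to 9.67 in the Mgmt-/- libraries. Depth ran from 150038 to 4791649 reads in WT and from 713584 to 7740710 in Mgmt-/-, and 4 WT NDMA libraries held under 300000 reads (D215006 at day 2, D215014 at day 5, D215022 at week 10 and D215030 at month 10). The mean of 5 hepatocyte genes (Alb, Apoa1, Ttr, Serpina1c, Fgb) was at least 15874 in every WT library and at least 17200.5 in every Mgmt-/- library but 2. Those 2, Mgmt-/- saline libraries of day 5, read 319 and 469.9 for the hepatocyte genes and 4983 and 4432 for 5 kidney genes (Kap, Umod, Slc34a1, Slc12a1, Fxyd2), whose mean was at most 4.30 in every other library. Values of Mgmt-/- day 5 include them unless stated. In 2 WT day 1 NDMA libraries the sex-specific genes went against the sex label, and without them the WT day 1 count of members called higher was 20 in place of 19. Batches are the preparation codes of the labels, and in WT at day 2, day 5 and week 10 the males formed one batch and the females another, and the effects of sex and of batch there cannot be told apart. These are whole-tissue values, in which fewer cells of a type and less RNA per cell cannot be told apart.

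Promoter sequence is shown for 1 member each of PA28, the alpha ring and the beta ring, Psme1, Psma6 and Psmb6, chosen after their values were seen. Each run is part of the RefSeq window on GRCm38.p6 (plus strand for all 3), cut to the 250 bases before the start and, for Psme1, the first 20 after it, and the capitals mark letters that a search found. For Psme1, at chr14:55578244-55578513, the capitals are the core of the interferon-stimulated response element on the minus strand, 2 copies of GAAA with 2 bases of any kind between them, which starts 10 bases after the RefSeq start. For Psma6, at chr12:55383972-55384221 (the first of 2 RefSeq windows of this gene), they are the CCAAT box on the minus strand 136 bases before the start and on the plus strand 29 bases before it. For Psmb6, at chr11:70525107-70525356, they are TGACNNNGC, the core of the antioxidant response element, 9 bases before the start.

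Psme1: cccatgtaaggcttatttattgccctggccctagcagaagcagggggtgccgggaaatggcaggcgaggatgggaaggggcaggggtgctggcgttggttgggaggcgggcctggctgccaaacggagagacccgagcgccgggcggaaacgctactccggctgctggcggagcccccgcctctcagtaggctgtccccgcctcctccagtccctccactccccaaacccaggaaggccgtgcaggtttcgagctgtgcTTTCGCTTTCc

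Psma6: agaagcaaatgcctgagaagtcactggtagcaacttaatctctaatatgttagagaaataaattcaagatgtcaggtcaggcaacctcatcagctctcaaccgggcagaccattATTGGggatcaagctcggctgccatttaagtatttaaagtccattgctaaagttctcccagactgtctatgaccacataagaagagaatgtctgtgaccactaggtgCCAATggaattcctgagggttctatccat

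Psmb6: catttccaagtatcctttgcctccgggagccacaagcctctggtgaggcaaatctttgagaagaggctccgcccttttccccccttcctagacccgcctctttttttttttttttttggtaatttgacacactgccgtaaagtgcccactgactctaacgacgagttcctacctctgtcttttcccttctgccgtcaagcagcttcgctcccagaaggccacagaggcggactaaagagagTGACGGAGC

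Of the 34 members, 28 had a RefSeq promoter window of 250 bases before and 50 after the start. On either strand, TGACNNNGC was found in 4 of the 28 (14.3%: Psmb5, Psmb6, Psmc6, Psmd12) and in 12.4% of all 32851 windows. CCAAT was found in 11 of 28 (39.3%) and in 37.4% of all windows, and the interferon-stimulated core in 3 of 28 (10.7%: Psmb3, Psmd4, Psme1) and in 3.44% of all. The last motif was added to the search after the values had been seen. These matches describe letters in a window and carry no test.

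Across the 10 comparisons of NDMA with saline, members were called higher at day 1, day 2 and, in Mgmt-/-, day 5, and at no later time. Values were analysed as log2(normalized count + 1), so a fold change is on that scale and is understated for weakly expressed genes. A member was called at an adjusted p under 0.05 over all genes tested, and separately where its log2 fold change also passed 0.58. All 34 members passed the filter on low values in all 10 comparisons. In WT at day 1, 19 of 34 members rose and none fell, against 11% of all genes called higher and 10.1% called lower, and the median over the members was 0.28 on the log2 scale where that over all genes was -0.03. In Mgmt-/-, 16 members rose at day 1 (13.2% of all genes), 12 at day 2 (15.9%) and 14 at day 5 (8.13%), and none fell, where 11.8%, 10.5% and 3.82% of all genes did. The member medians were 0.31, 0.20 and 0.33, where those of all genes were 0.02, 0.03 and -0.01. WT day 2 gave 3 members higher, Psma6, Psma7 and Psme1 (4.23% of all genes), and 1 lower, Psmd1 (3.47%). Without the shallow NDMA library D215006 the WT day 2 counts were 10 higher and 2 lower, and without the saline library D215004 or the NDMA library D215005 5 were higher. In 9 of the 16 fits that left out 1 library 2 members were higher, and edgeR on the whole reads of 13 libraries called none (6 members at an unadjusted p under 0.05) while DESeq2 called 4. In Mgmt-/- at day 5, 9 members were higher without the NDMA library D389072 or D389096. For these fits with 1 library left out, in WT at day 2 and Mgmt-/- at day 5, the share of all genes called is not given here. Their counts can therefore not be set against that share.

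Few members passed the fold threshold as well. None of the 34 did in WT at day 1 (5.01% of all genes), Psme1 alone did in WT at day 2 (3.33%), and in Mgmt-/- the counts were 2 at day 1 (9.06%), 1 at day 2 (12.4%) and 4 at day 5 (7.17%), or 3 without the kidney-transcript libraries (11.1%). No member was called in WT at day 5, week 10 or month 10 or in Mgmt-/- at week 10 or month 10, where 2.26%, 0.0249%, 0%, 7.33% and 5.28% of all genes were called higher. At an unadjusted p under 0.05 the members numbered 6, 0, 2, 0 and 4 in these 5 comparisons, out of 1549, 350, 757, 2332 and 2423 genes. By the count models at an adjusted p alone, edgeR called no member in any of the 5, while DESeq2 called 2 in WT at day 5 and 2 in Mgmt-/- at month 10. The member medians in these 5 comparisons lay between -0.03 and 0.12, the latter in WT at month 10. The median standard error over the members was 0.10 in WT at day 1 and 0.17 to 0.19 in WT at day 5, week 10 and month 10. In WT at day 5, leaving out the shallow library D215014 gave 4 members higher and leaving out the saline library D215012 gave 2. The share of all genes called in these fits is not given here, so their counts cannot be set against it.

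**Figure D1:**
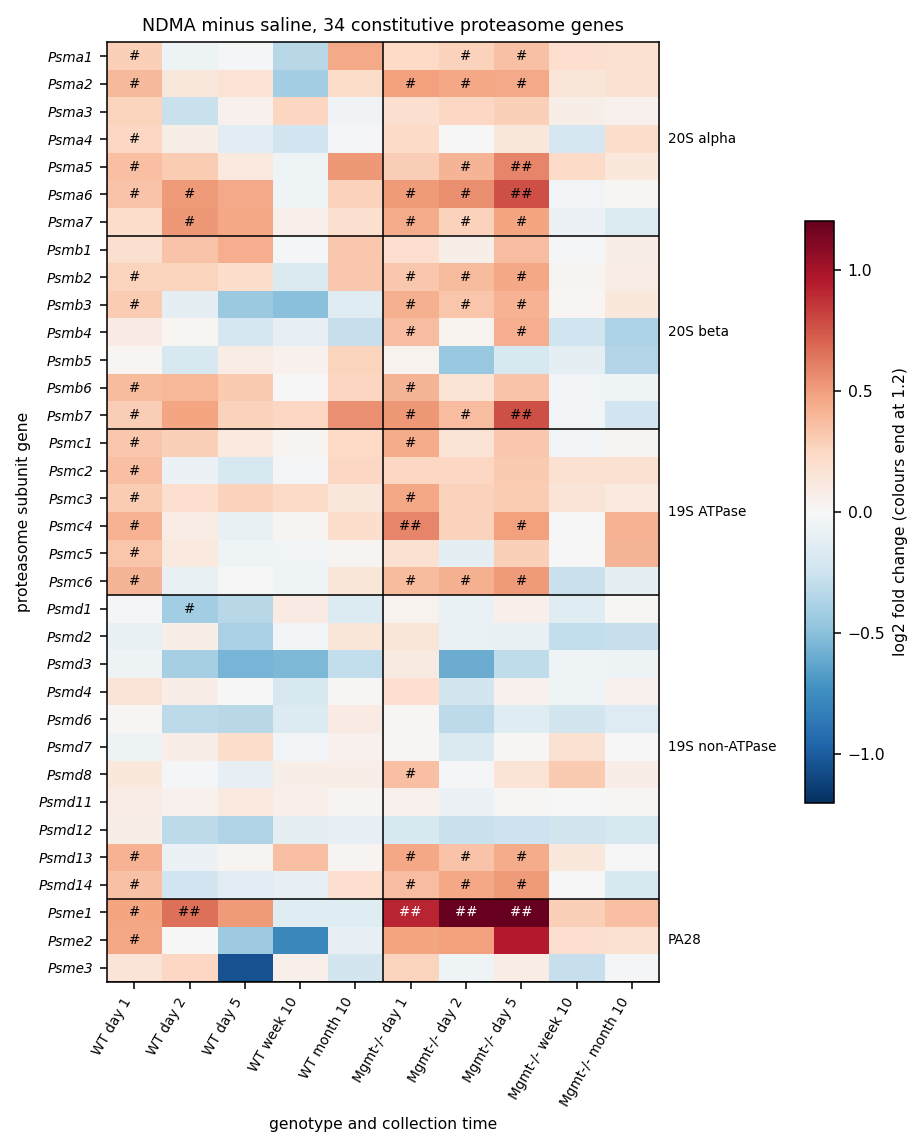
Log2 fold change of each of the 34 members (rows, by particle) in the 10 comparisons of NDMA with saline (columns), limma on log2(normalized count + 1). One mark is an adjusted p under 0.05 and a double mark one with a log2 fold change past 0.58; 19 members are marked in the WT day 1 column, 4 at WT day 2 and 16, 12 and 14 in the first 3 Mgmt-/- columns, and none elsewhere.

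The 4 early comparisons with many calls called overlapping members. Both day 1 comparisons called 13 members (7.2% of all genes were called higher in both), which is 13 of the 19 in WT and 13 of the 16 in Mgmt-/-. Day 1, day 2 and day 5 of Mgmt-/- shared 10 members (4.77% of all genes), namely the alpha subunits Psma2, Psma6 and Psma7, the beta subunits Psmb2, Psmb3 and Psmb7, the ATPase Psmc6, the lid subunits Psmd13 and Psmd14, and Psme1. Of these 10, 9 were higher in WT at day 1 too (3.89%), all but Psma7. Without the 2 kidney-transcript libraries the same 10 were shared by the 3 Mgmt-/- times (6.87% of all genes). The Mgmt-/- day 1 calls of Psmb2 and Psmd14 were lost without the saline library D209090, described with Psme1 below (from 0.33 to 0.32 and from 0.37 to 0.29, adjusted p = 0.0531 and 0.0909 in limma). At the other end, 11 members were called in none of the 10 comparisons: Psma3, Psmb1, Psmb5, Psme3 and 7 non-ATPase subunits. The median standard error of the 13 members called in at least 3 comparisons and of the 11 never called was 0.10 and 0.10 in WT at day 1, and 0.12 and 0.14, 0.11 and 0.16, and 0.12 and 0.17 at the 3 early times of Mgmt-/-, and its part in the calls was not tested.

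The alpha ring, which gates entry to the core, rose in part in both genotypes. All 7 alpha subunits had a positive fold change in WT at day 1 and in Mgmt-/- at day 1 and day 5, and 6 of 7 did in Mgmt-/- at day 2. The called members numbered 5, 3, 5 and 5 in WT day 1 and Mgmt-/- day 1, day 2 and day 5, where 11%, 13.2%, 15.9% and 8.13% of all genes were called higher. The particle medians were 0.29, 0.30, 0.28 and 0.46. Without the kidney-transcript libraries 4 alpha subunits were called at day 5 (14% of all genes), since Psma1 was not (0.28 ± 0.11, adjusted p = 0.0567). Psma6 was called in 5 of the 10 comparisons, as many as any member. Its saline values in Mgmt-/- at day 5 ran from 301 to 455 (median 392, n = 8) and its NDMA values from 587 to 859 (median 631, n = 8). The groups did not overlap, and the lowest NDMA library stood well above the highest saline one. The log2 fold change was 0.77 ± 0.12 (SE, adjusted p = 0.000377), and 0.67 ± 0.11 without the kidney-transcript libraries (adjusted p = 6.17e-05).

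At day 2 in Mgmt-/-, Psma6 read 279 to 465.8 (median 435) in 7 saline and 499.7 to 740.3 (median 533) in 8 NDMA libraries, again without overlap (0.56 ± 0.12, adjusted p = 0.00102). In Mgmt-/- day 1 livers it read 209 to 468 (median 352) in saline and 328 to 622 (median 483) after NDMA, with 7 of 12 NDMA libraries above every saline library (0.51 ± 0.12, adjusted p = 0.00172). WT day 1 livers read 199 to 418 (median 300.0) in saline and 232 to 628 (median 383) after NDMA, and 22 of 26 NDMA libraries lay above the saline median (0.35 ± 0.08, adjusted p = 0.00178). In WT at day 2, 7 of 8 NDMA libraries passed the highest saline value of 353, with the top value, 757, in the shallow library D215006 (0.51 ± 0.15, adjusted p = 0.0383).

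Psma2, another alpha subunit, also separated the Mgmt-/- groups at day 2 and day 5. It read 525 to 750.3 (median 659) in saline and 780.2 to 1114 (median 863) after NDMA at day 2, and 639 to 779.9 (median 688) and 809 to 1118 (median 921) at day 5. Neither pair of groups overlapped, and the fold changes were 0.46 ± 0.10 (adjusted p = 0.000855) and 0.46 ± 0.09 (adjusted p = 0.00328). Psma5 passed the fold threshold at Mgmt-/- day 5 with saline values of 154 to 318 (median 236) and NDMA values of 285 to 433 (median 323). These groups overlapped, and its fold change of 0.58 ± 0.14 (adjusted p = 0.0119) was 0.46 ± 0.13 without the kidney-transcript libraries, still called by its adjusted p of 0.00898 but below the fold threshold. Psma7 was called in WT at day 2 (0.52 ± 0.12, adjusted p = 0.00914) and in Mgmt-/- at all 3 early times. Psma3 was called nowhere, with fold changes of 0.19 to 0.29 in the 4 comparisons.

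The beta ring holds the active sites. The 7 beta subunits had 4, 5, 3 and 4 called members in WT day 1 and Mgmt-/- day 1, day 2 and day 5, with medians of 0.27, 0.37, 0.16 and 0.41. In these comparisons 11%, 13.2%, 15.9% and 8.13% of all genes were called higher. Psmb7, the trypsin-like subunit, read 73.0 to 156 (median 115) in saline and 163 to 257 (median 189.8) after NDMA in Mgmt-/- at day 5. No saline library reached the NDMA range, and the fold change was 0.78 ± 0.15 (adjusted p = 0.00269), or 0.64 ± 0.13 (adjusted p = 0.00086) without the kidney-transcript libraries, which held the lowest values. It was also higher in Mgmt-/- at day 1 (0.52 ± 0.14, adjusted p = 0.00436) and day 2 (0.37 ± 0.13, adjusted p = 0.032), and in WT at day 1 (0.29 ± 0.09, adjusted p = 0.0108). In WT the level of Psmb7 followed the batch that coincided with sex: at day 2 the saline libraries of males read 349 to 524 and those of females 153 to 219, and the NDMA libraries 449 to 514 and 232 to 431.

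Psmb6, the caspase-like subunit, read 620.7 to 716 (median 657) in 8 saline and 722 to 1294 (median 815) in 8 NDMA livers of WT at day 2. It was the 1 member whose WT day 2 groups did not overlap (0.373% of all genes), yet its fold change of 0.40 ± 0.12 missed the threshold (adjusted p = 0.0521). It rose at day 1 in WT (0.38 ± 0.09, adjusted p = 0.00204) and in Mgmt-/- (0.41 ± 0.11, adjusted p = 0.00517). At Mgmt-/- day 2 and day 5 its fold changes were 0.16 ± 0.10 (adjusted p = 0.251) and 0.34 ± 0.13 (adjusted p = 0.116), the latter 0.22 ± 0.11 (adjusted p = 0.177) without the kidney-transcript libraries.

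Psmb5, the chymotrypsin-like subunit, was called in none of the 10 comparisons. It read 17.7 to 34.1 (median 20.6) in saline and 14.4 to 19.3 (median 15.7) after NDMA in Mgmt-/- at day 2, where every NDMA library lay below the saline median (-0.45 ± 0.19, adjusted p = 0.0892). At the other early Mgmt-/- times the fold changes were 0.04 ± 0.18 at day 1 and -0.19 ± 0.21 at day 5 (-0.30 ± 0.22 without the kidney-transcript libraries), and in WT at day 1 0.02 ± 0.13. The other called beta subunits were Psmb2 and Psmb3 in all 4 comparisons and Psmb4 at Mgmt-/- day 1 and day 5.

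The interferon-inducible replacements of the 3 catalytic subunits moved much further. Psmb8, Psmb9 and Psmb10 were all called past the fold threshold in WT at day 1 and day 2 and in Mgmt-/- at day 1, day 2 and day 5, and Psmb8 and Psmb9 were in WT at day 5. At Mgmt-/- day 2, Psmb9 read 76.2 to 110.0 (median 101) in saline and 368 to 686 (median 496) after NDMA, with no overlap and a fold change of 2.33 ± 0.13 (adjusted p = 5.74e-13). Psmb8, the partner of Psmb5, rose by 1.94 ± 0.15 there (adjusted p = 1.35e-10), and Psmb10, the partner of Psmb7, by 1.38 ± 0.14 (adjusted p = 3.53e-08). At Mgmt-/- day 5 the 3 fold changes were 2.51, 2.79 and 1.63, and 1.90, 1.97 and 1.22 without the kidney-transcript libraries. None of the 3 was called in Mgmt-/- at week 10 (0.45, 0.66 and 0.33 for Psmb8, Psmb9 and Psmb10, adjusted p = 0.228, 0.0987 and 0.379), where 2 were under one total per library. At month 10 Psmb10 was higher in Mgmt-/- (0.59 ± 0.19, adjusted p = 0.0404), and Psmb7 was at -0.23 ± 0.18 (adjusted p = 0.471).

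**Figure D2:**
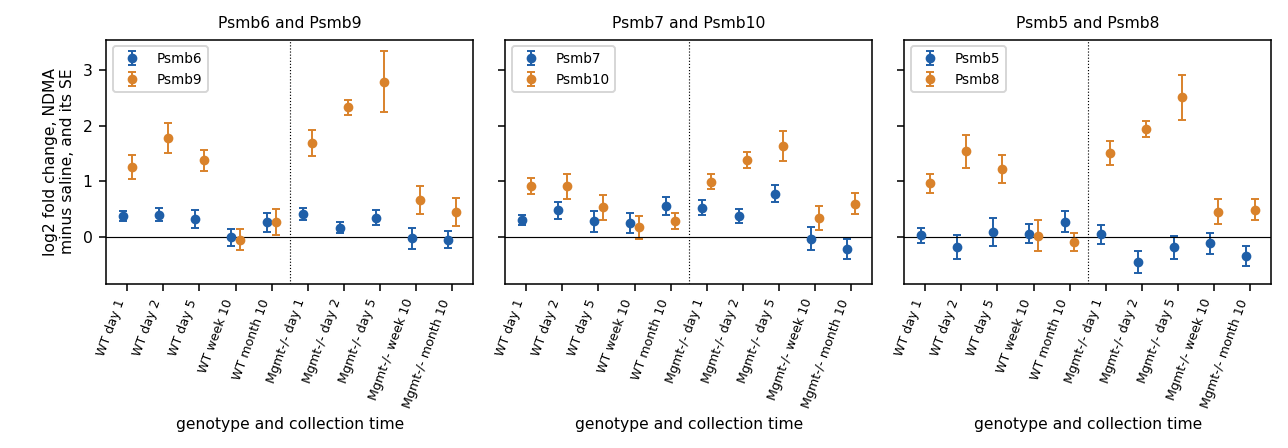
Log2 fold change and its standard error for each catalytic subunit (blue) and its interferon-inducible counterpart (orange) in the 10 comparisons, WT left and Mgmt-/- right of the dotted line. The counterparts reach 2.51, 2.79 and 1.63 at Mgmt-/- day 5, where Psmb5, Psmb6 and Psmb7 are at -0.19, 0.34 and 0.78.

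The 19S ATPases, which form the ring that unfolds substrates and threads them into the core, were the particle called in full in WT at day 1. All 6 rose there (11% of all genes), with a median of 0.35. In Mgmt-/- 4, 1 and 2 of 6 were called higher at day 1, day 2 and day 5 (medians 0.41, 0.26 and 0.32). There 13.2%, 15.9% and 8.13% of all genes were called higher, so the count at day 2 was near that share. At day 5 Psmc3 was called too without the kidney-transcript libraries (0.34 ± 0.11, adjusted p = 0.0276). Psmc4 read 201 to 431 (median 299) in saline and 239 to 833 (median 421) after NDMA in Mgmt-/- at day 1. The ranges overlapped, 11 of 12 NDMA libraries were above the saline median, and the fold change was 0.59 ± 0.12 (adjusted p = 0.000208). In WT at day 1, Psmc4 read 146 to 431 (median 193) and 166 to 546 (median 330.2), with 23 of 26 NDMA libraries above the saline median (0.42 ± 0.11, adjusted p = 0.00258). Psmc6 was the 1 ATPase called in all 4 comparisons, at 0.41, 0.38, 0.42 and 0.51. Psmc5 was called in WT at day 1 alone (0.33 ± 0.09, adjusted p = 0.00364) and was at -0.10 ± 0.14 in Mgmt-/- at day 2.

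The 19S non-ATPase subunits, which make up the substrate-receiving base and lid, had called members in both genotypes. Their medians were 0.07 in WT at day 1 and 0.11, -0.08 and 0.01 in Mgmt-/- at day 1, day 2 and day 5, and 2, 3, 2 and 2 of 11 were called higher, where 11%, 13.2%, 15.9% and 8.13% of all genes were. Without the kidney-transcript libraries the day 5 median was -0.10, with 2 called. The lid subunit Psmd13 and Psmd14, the lid deubiquitinase that removes ubiquitin chains from the substrate, were called in all 4 comparisons, and Psmd8 at Mgmt-/- day 1 (0.36 ± 0.11, adjusted p = 0.0169). Psmd14 stood at 0.35, 0.37, 0.47 and 0.51, and Psmd13 at 0.42, 0.46, 0.34 and 0.44. The remaining 8 included the scaffold subunits Psmd1 and Psmd2, the ubiquitin receptor Psmd4, and Psmd3, Psmd6, Psmd7, Psmd11 and Psmd12. Psmd3 read 18.5 to 33.1 (median 22.6) in saline and 9.44 to 27.1 (median 15.1) after NDMA in Mgmt-/- at day 2, where 1 of 8 NDMA libraries passed the saline median (-0.60 ± 0.23, adjusted p = 0.0517). Psmd1 fell in WT at day 2 (-0.42 ± 0.12, adjusted p = 0.0377), a call that was lost in most leave-one-out fits and when every column was scaled to one total.

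Psme1, the alpha subunit of PA28, had the largest fold change of the called members. Its gene lies on the plus strand at chr14:55578123-55581529 (GENCODE, GRCm38) and Psme2 on the minus strand of the same chromosome, at chr14:55587441-55591113. The Psme1 promoter sequence shown above was placed by the RefSeq start and lies inside the GENCODE bounds of Psme1. Psme1 was called past the fold threshold in 4 of the 10 comparisons. In Mgmt-/- at day 2 it read 206 to 257 (median 225) in 7 saline and 399 to 672 (median 519) in 8 NDMA libraries. At day 5 it read 90.9 to 286 (median 199) and 419 to 573 (median 485), and the 6 saline libraries without kidney transcripts read 166 to 286. Neither pair of groups overlapped, and the lowest NDMA liver was well above the highest saline liver at both times. The fold changes were 1.21 ± 0.11 (adjusted p = 6.96e-09) and 1.49 ± 0.19 (adjusted p = 3.94e-05), and 1.24 ± 0.12 at day 5 without the kidney-transcript libraries (adjusted p = 1.46e-08).

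At Mgmt-/- day 1 Psme1 read 139.6 to 705 (median 218) in saline and 288 to 682 (median 459.7) after NDMA (0.92 ± 0.14, adjusted p = 3.37e-06). All 12 NDMA libraries were above the saline median, and the ranges overlapped. The highest saline library, D209090, read 705 with the next at 414, which was above the lowest NDMA value too. WT day 1 looked alike, with 87.6 to 663 (median 149.6) in saline and 142 to 504 (median 209.7) after NDMA (0.48 ± 0.11, adjusted p = 0.000842), and 1 saline library, D209074, at 663 with the next at 271. These 2 libraries, both of batch 200803Eng, were also the highest of their groups for Psmb8 (519 in Mgmt-/- and 330 in WT), Psmb9 (640 and 573) and Psmb10 (482 and 562), and their summed T and NK cell genes, 143 and 134, were the highest as well. Their part in the day 1 result was measured by leaving them out. Psme1 then rose by 1.02 ± 0.12 in Mgmt-/- (adjusted p = 4.41e-08) and 0.55 ± 0.10 in WT (adjusted p = 1.21e-05), and 14 (13.6% of all genes) and 20 (12%) of the 34 members were called higher. Psmb2 and Psmd14 were the members no longer called in Mgmt-/-. Whether the saline label of these 2 libraries is right was not tested.

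In WT at day 2 Psme1 read 121 to 286 (median 135) in saline and 176 to 421 (median 218) after NDMA (0.66 ± 0.16, adjusted p = 0.015). The ranges overlapped, and the highest saline library, D215004, read 286 with the next at 194. At day 5 in WT its fold change was 0.51 ± 0.18 (adjusted p = 0.122). The later values were -0.15 and -0.14 in WT at week 10 and month 10, and 0.29 and 0.36 in Mgmt-/- (adjusted p = 0.91, 0.785, 0.42 and 0.0819). Psme2, its partner in PA28, was called in WT at day 1 alone (0.47 ± 0.15, adjusted p = 0.0237). In Mgmt-/- it read 41.1 to 169 (median 118) and 109.7 to 209 (median 156) at day 2 and 16.9 to 219.7 (median 81.5) and 98.3 to 208 (median 137) at day 5, with fold changes of 0.49 ± 0.22 and 0.96 ± 0.44 (adjusted p = 0.114 and 0.187). Without the kidney-transcript libraries the day 5 value was 0.49 ± 0.36 (adjusted p = 0.385). Its WT values after day 1 included 0 in NDMA libraries, and its standard errors there were 0.46 to 0.89. Psme3, the PA28 gamma subunit of the nucleus, was not called in any comparison.

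**Figure D3:**
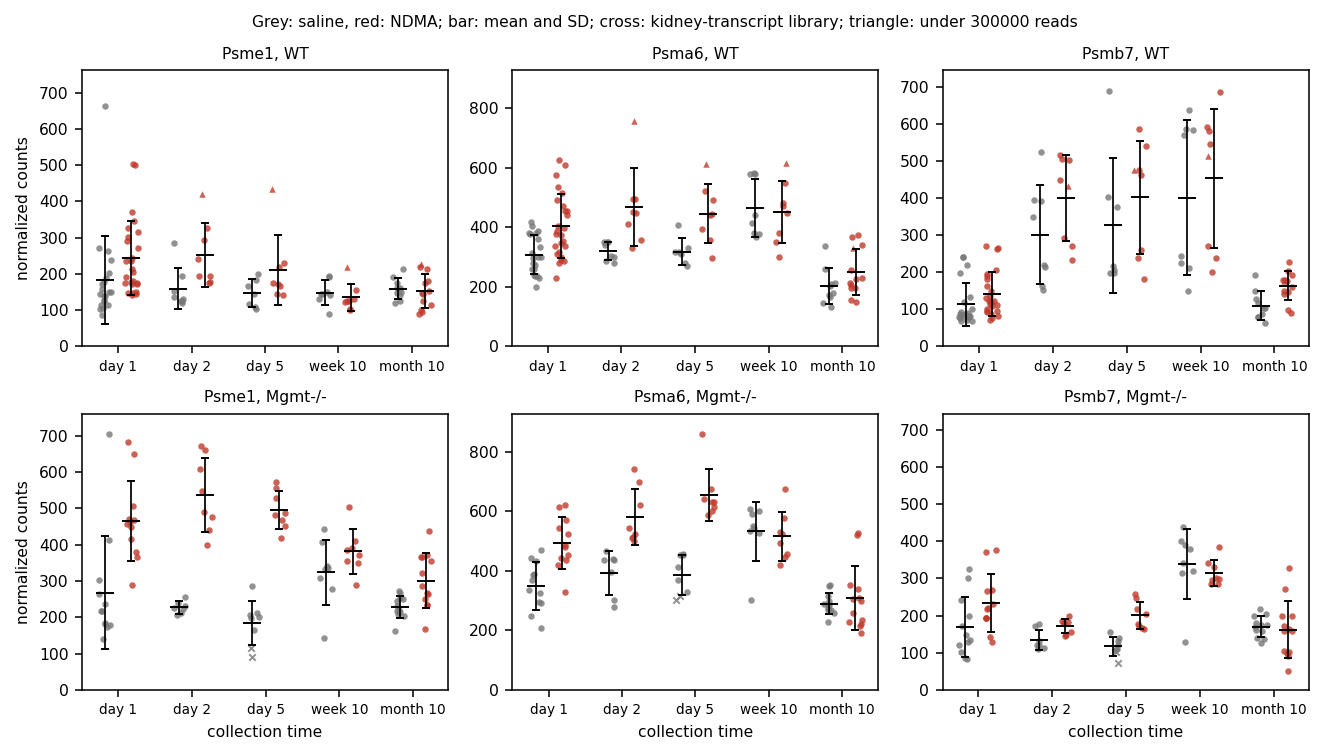
Normalized counts of Psme1, Psma6 and Psmb7 by library (points), with mean and SD of each group, saline in grey and NDMA in red, over the 5 collection times. At Mgmt-/- day 5 the NDMA libraries lie at 419 to 573, 587 to 859 and 163 to 257, above all saline libraries, and in the WT panel of Psmb7 the day 2 saline libraries split into those of males (349 to 524) and of females (153 to 219).

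Members whose groups did not overlap were then counted. In Mgmt-/- all NDMA libraries exceeded all saline libraries for 4 members at day 2 (Psma2, Psma6, Psmd13 and Psme1; 6.19% of all genes) and for 6 at day 5 (Psma2, Psma6, Psma7, Psmb7, Psmc6 and Psme1; 4.29%). The 3 immunoproteasome genes did so at both times.

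The values were next scaled so that every library had the same total, in place of the authors' size factors. This moved the median of all genes in Mgmt-/- by over 0.1, from 0.02 to 0.20 at day 1, from 0.03 to 0.19 at day 2 and from 0.04 to 0.24 at week 10. The members called higher became 25 at day 1 (23.4% of all genes) and 19 at day 2 (24.8%), and past the fold threshold 12 (16.1%) and 7 (17.8%). The member medians, 0.51 and 0.37, were above the shifted medians of all genes by about as much as before. At week 10, Psme1 was the 1 member called (0.50, 12.8% of all genes), with a member median of 0.20 below the 0.24 of all genes. In WT the scaling left 21 members higher at day 1 (14.1%) and 6 at day 2 (5.59%), where Psmb1, Psmb6 and Psmb7 joined the 3 named above and Psmd1 was no longer called.

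At Mgmt-/- day 5 the scaling went the other way. With the kidney-transcript libraries kept, 3 members (Psma6, Psmb7, Psme1) were called in place of 14 (5.97% of all genes), and the median of all genes fell to -0.12. Without those 2 libraries the calls were 14 under the size factors (14%) and 20 under one total (21.5%), with member medians of 0.26 and 0.42. Since one total compares each gene with the whole library, the share of the library that the members took was computed too, as a description. In Mgmt-/- it was 4.40 to 5.54 per mille (median 5.06) in day 1 saline livers and 6.09 to 9.25 (median 7.31) after NDMA. At day 2 it was 4.73 to 5.79 (median 4.79) and 6.04 to 7.65 (median 6.45). Neither pair overlapped. At day 5 the NDMA livers held 6.24 to 7.58, the 6 saline libraries without kidney transcripts 4.63 to 5.35, and the 2 with them 7.52 and 7.93. At week 10 the Mgmt-/- share was 4.91 to 5.63 (median 5.49) in saline and 5.57 to 6.62 (median 6.26) after NDMA, so the ranges barely overlapped. In WT the share at day 2 was 4.26 to 5.25 in saline and 5.34 to 6.61 after NDMA, without overlap, at day 1 4.17 to 7.62 and 5.03 to 7.85, at day 5 4.55 to 6.27 (median 4.84) and 5.23 to 6.93 (median 5.87), and at week 10 4.42 to 5.98 and 4.10 to 5.67. At month 10 saline and NDMA livers of both genotypes had medians between 3.97 and 4.37.

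**Figure D4:**
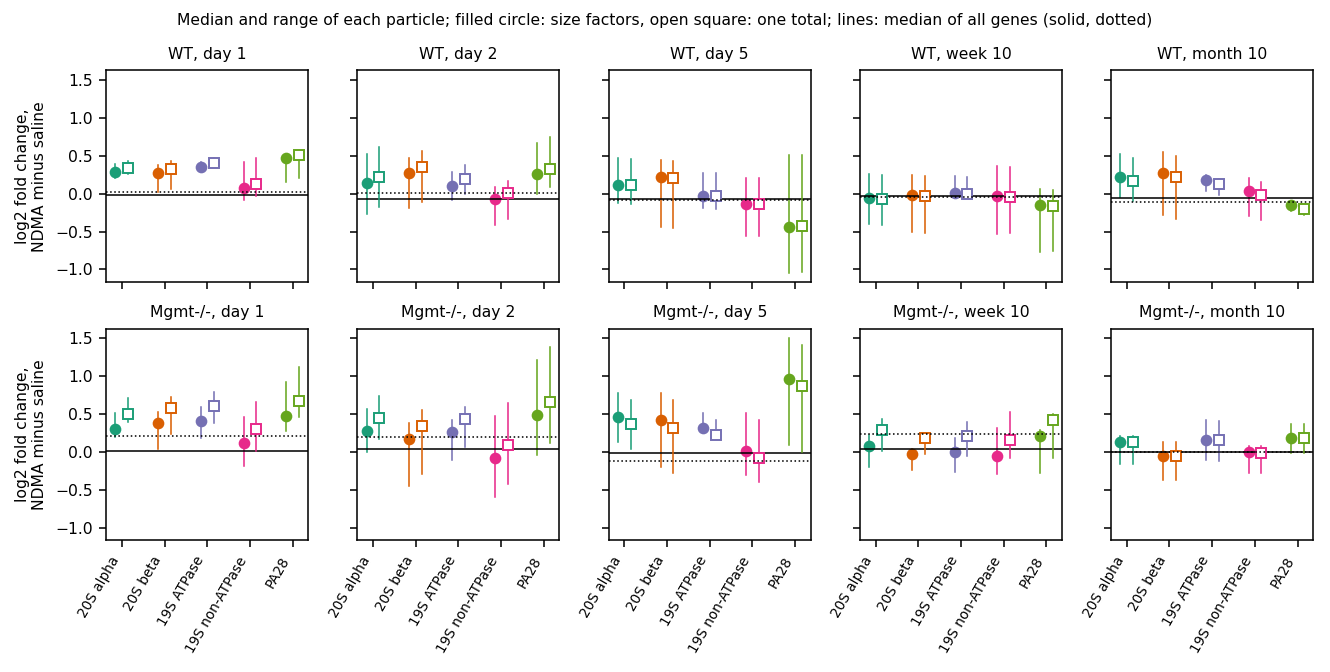
Median log2 fold change of each particle with the range over its members, for authors' size factors (filled circles) and one total (open squares), with the median of all genes as a solid and a dotted line. In the early Mgmt-/- panels the 20S and ATPase medians lie above the line of all genes under both scalings, while the non-ATPase medians (0.11, -0.08 and 0.01 by size factors) lie nearer to it.

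**Figure D5:**
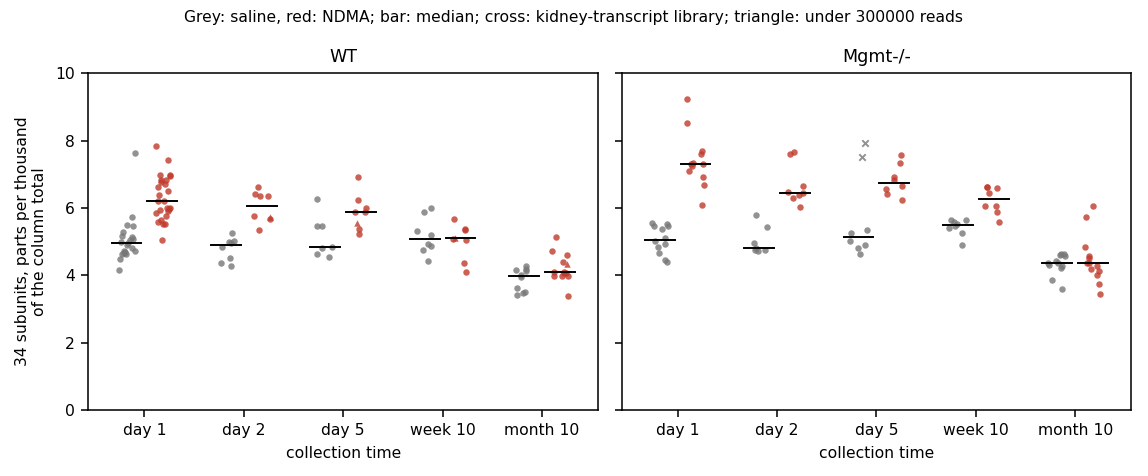
Summed values of the 34 members in per mille of each library's total, by genotype, time and treatment, with the group median as a bar. The Mgmt-/- NDMA livers at day 1 and day 2 (6.09 to 9.25 and 6.04 to 7.65) lie above all Mgmt-/- saline livers of those times, and the 2 crosses at day 5 are the kidney-transcript libraries.

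Markers of other cells were read in the same libraries. In WT at day 1, day 2 and day 5, 11%, 4.23% and 2.26% of all genes were called higher and 10.1%, 3.47% and 1.39% lower. In Mgmt-/- 13.2%, 15.9% and 8.13% were called higher and 11.8%, 10.5% and 3.82% lower. Without the kidney-transcript libraries the Mgmt-/- day 5 shares were 14% and 9.32%. Of 8 T and NK cell genes, 5 were tested (Cd3e, Cd8a and Cd4 were below the filter), and 4, 3 and 3 were higher in WT at day 1, day 2 and day 5 and 3, 5 and 5 in Mgmt-/-. Their summed level in Mgmt-/- at day 2 was 40.0 to 71.0 in saline and 177 to 468 after NDMA, and at day 5 9.86 to 49.2 (34.5 to 49.2 without the kidney-transcript libraries) and 256 to 551, with no overlap and with Gzma the gene of the highest mean after NDMA. At day 1 the sums overlapped, at 25.0 to 143 and 37.0 to 515 in Mgmt-/- and 24.5 to 134 and 24.5 to 212 in WT. So did those of WT at day 2 (39.0 to 135 and 94.8 to 263) and day 5 (12.2 to 73.8 and 63.9 to 135). The 8 macrophage and Kupffer cell genes, of which Cd5l had the highest mean after NDMA, went both ways. Over the first 3 times, WT livers had 3, 1 and 1 of them higher and 2, 2 and 0 lower, and Mgmt-/- livers 2, 5 and 3 higher and 3, 0 and 0 lower. Without the kidney-transcript libraries the last of these was 4 higher and 1 lower, Clec4f, and the median of the list was 0.72 in place of 1.81. Their sums in Mgmt-/- were 546 to 2159 in saline and 549.8 to 1714 after NDMA at day 1, and 579 to 1108 and 1071 to 2441 at day 2. Of 5 hepatocyte genes, 1, 0 and 0 were higher and 1, 2 and 0 lower in WT at day 1, day 2 and day 5. In Mgmt-/-, 4 were lower at day 1 and at day 2. At day 5 none was called (median 1.66) with the kidney-transcript libraries, and 3 were lower (median -0.48) without them. The part of these cells in the levels of the members was not tested. Of 8 proliferation genes 6 were higher in Mgmt-/- at day 2, and all 5 that passed the filter were higher at week 10 (7.33% of all genes). Any link of these genes with the members was not tested.

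The day 1 groups were spread over batches, which allowed the comparison within each. In WT, 9 members rose in batch 191212Eng (median 0.23, 7.87% of all genes called higher), 12 in 210901Eng (0.40, 8.42%) and 0 in 200803Eng (0.07, 0%), where limma called no gene at all (1 member and 264 genes at an unadjusted p under 0.05). That part of 200803Eng held 4 saline and 6 NDMA libraries, among them D209074 and the 2 NDMA libraries whose sex genes went against their label. Without these 3, limma still called no member higher (1.23% of all genes), 4 had an unadjusted p under 0.05, and the median was 0.26. In Mgmt-/-, 15 rose in 191212Eng (0.38, 11.4%) and 1 in 200803Eng (0.29, 2.64%).

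Whether the genotypes differed was tested by a genotype by treatment term in edgeR on the whole reads of both tables. The genotypes shared 2 batches at day 1 and 1 at month 10 but none at day 2, day 5 and week 10, where a genotype and a batch difference cannot be told apart. No member had such a term at any of the 5 times, where, in order of time, 0.0528%, 4.59%, 0.808%, 5.88% and 1.41% of all genes did, and 1, 4, 8, 0 and 4 members had an unadjusted p under 0.05. Over all genes, 954 of 9468, 1565 of 8818, 1246 of 9285, 1612 of 8686 and 1394 of 9971 had such a p. The smallest adjusted p at day 2 and day 5 was that of Psme1, with a response larger in Mgmt-/- by 0.63 (adjusted p = 0.0745) and 0.92 (adjusted p = 0.107). With limma on both tables scaled to one total, Psmd14 (0.79 ± 0.19, adjusted p = 0.0084) and Psmc6 (0.60 ± 0.17, adjusted p = 0.0259) had a larger response in Mgmt-/- at day 2 (6.57% of all genes), and Psme1 at day 5 (0.90 ± 0.22, adjusted p = 0.0345; 0.926%). These day 5 terms kept the kidney-transcript libraries. Without them no member had a term in edgeR (2.56% of all genes; Psme1 0.72, adjusted p = 0.0646), and Psme1 alone had one in limma under one total (0.89 ± 0.21, adjusted p = 0.0146; 2.74%).

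A sex by treatment term in limma was found for no member in any of the 10 comparisons, and 2 members in Mgmt-/- at week 10, 9 at month 10 and none elsewhere had an unadjusted p under 0.05. At week 10 and month 10 of Mgmt-/-, 408 of 9681 and 1968 of 10066 genes had one. Of all genes, 0%, 0%, 0%, 0% and 0% had the term in WT, in order of time, and 0%, 0%, 0%, 0.114% and 0.338% in Mgmt-/-. The nearest was Mgmt-/- month 10, where the median difference (male minus female) was 0.29 over the members and -0.07 over all genes, and the smallest adjusted p was 0.104, for Psmd1.

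Whether the effect of NDMA differed between day 1 and the later times was tested by a time by treatment term within each genotype, a test added after the values had been seen. Against day 1, the log2 fold change with NDMA was lower at week 10 in WT for Psma2 (-0.79 ± 0.24, adjusted p = 0.0423; 3.28% of all genes had a term) and in Mgmt-/- for Psmc6 (-0.65 ± 0.19, adjusted p = 0.0282; 5.43%). Such a lower value can be a smaller rise or a turn to a negative fold change. WT week 10 shared no batch with WT day 1, so time and batch cannot be told apart there, while the other 3 pairs shared 1. At month 10 no member had a term in WT (2.2%), where 3 members and 1356 of 9329 genes had an unadjusted p under 0.05. In Mgmt-/- Psmb4 (-0.75 ± 0.19, adjusted p = 0.00872) and Psmb7 (-0.74 ± 0.24, adjusted p = 0.0449) had a term at month 10 (7.09%). The difference was negative for 30 of 34 members in WT at week 10, 25 in WT at month 10, and 33 in Mgmt-/- at week 10 and at month 10. The member medians were -0.31, -0.12, -0.30 and -0.27, where those of all genes were -0.04, -0.03, 0.06 and 0.02, and both later times of a genotype are set against the same day 1 libraries. Under one total, 7 members had a term in WT at week 10 (4.55%), 0 in WT at month 10 (2.35%), 2 in Mgmt-/- at week 10 (5.11%) and 11 in Mgmt-/- at month 10 (8.12%).

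Age was compared in saline livers within batches that held both ages. From day 2 to week 10 in WT, 8 members rose (10.5% of all genes), namely Psma2, Psma4, Psma6, Psmb6, Psmc1, Psmc4, Psmd4 and Psmd11, of which Psmd11 passed the fold threshold (0.61). Under one total 4 rose and 1 fell (7.51% of all genes higher and 19.4% lower). In Mgmt-/-, 4 saline libraries of day 1 and 8 of week 10 gave no member called higher or lower (4.84% of all genes higher), with 4 members and 2146 of 9804 genes at an unadjusted p under 0.05 in limma. The 4 libraries of day 1 included D209090, described with Psme1 above, whose saline label was not tested.

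The wider proteasome pathway was followed in 5 lists. Of 8 assembly factors tested, Pomp, which matures the 20S core, rose in WT at day 1 (0.31 ± 0.09, adjusted p = 0.00738) and in Mgmt-/- at day 1, day 2 and day 5 (0.48, 0.40 and 0.54, the last 0.35 without the kidney-transcript libraries), and Psmg4, a 20S chaperone, rose at Mgmt-/- day 1 (0.56 ± 0.13, adjusted p = 0.0014). The list held 1, 2, 2 and 1 assembly factors called higher in those comparisons, where 11%, 13.2%, 15.9% and 8.13% of all genes were. In WT at day 2 it held 1, where 4.23% of all genes were called higher. Of 14 associated factors, Psmf1, a regulator first described as an inhibitor of the core, rose in the same 4 comparisons as Pomp (0.48, 0.38, 0.49 and 0.82, the last 0.57 without the kidney-transcript libraries). In these 4 comparisons 2, 3, 2 and 1 of the 14 rose, where 11%, 13.2%, 15.9% and 8.13% of all genes did. The ubiquitin receptor Adrm1 fell at Mgmt-/- day 2 (-1.02 ± 0.31, adjusted p = 0.0147), and Uchl5, a deubiquitinase of the 19S particle, at Mgmt-/- day 5 (-0.63 ± 0.18, adjusted p = 0.0325, or -0.54 ± 0.19, adjusted p = 0.0405, without those libraries). Among the ubiquitin genes, Ubb rose in WT at day 1 and in Mgmt-/- at day 2, day 5, week 10 and month 10 (0.38, 0.45, 0.33, 0.70 and 0.53), and Rps27a was mostly below the filter.

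Of 4 regulators, Nfe2l2, named above, was called in 5 comparisons, Nfe2l1 in 1 and Ngly1, the enzyme that processes Nfe2l1, in 1, lower in Mgmt-/- at month 10. Nfe2l2 read 75.0 to 133 (median 113) in saline and 224 to 291 (median 247) after NDMA in Mgmt-/- at day 2, with no overlap (1.25 ± 0.12, adjusted p = 1.37e-08). It rose in WT at day 1 (0.63 ± 0.09, adjusted p = 5.91e-07), in Mgmt-/- at day 1 and day 5 (1.15 and 0.93, the latter 1.16 without the kidney-transcript libraries) and at week 10 (0.91 ± 0.17, adjusted p = 0.000533). The part of Nfe2l2 in the levels of the members was not tested. Nfe2l1 was called once, lower in Mgmt-/- at day 5 (-0.69 ± 0.21, adjusted p = 0.0423), and without the kidney-transcript libraries it was at -0.52 (adjusted p = 0.0641).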

How the data were processed

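Liver polyadenylated RNA of 214 mice was labelled, and 213 libraries had values. Per the labels and the study's methods, the authors aligned reads with STAR to GRCm38 (mm10), counted them with ESAT and divided the counts by 1 DESeq2 size factor per library, separately for each genotype. Versions, the handling of molecular identifiers and the assignment of reads that match several places (such as pseudogene copies) are not given in the sources used here. The deposited values are this normalized signal, neither raw counts nor per length, so the levels of members were not compared with each other. Whole reads were recovered in 209 columns, where 100% of values came out whole within 0.1 of a read, and not in 4 (1 Mgmt-/- NDMA library of day 1 and 3 WT saline libraries of day 2). No deposited column lacked a sample.

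NDMA was compared with saline within each genotype and time by limma 3.58.1 (trend, robust; R 4.3.3) on log2(value + 1) over genes whose mean was 5 or more, with sex and batch as terms and Benjamini-Hochberg adjustment. A call needed an adjusted p under 0.05, alone or with an absolute log2 fold change over 0.58. The genotype term used edgeR 4.0.16 on recovered reads (quasi-likelihood, TMM). Alternatives were one total per library, that total without the 50 most abundant genes, other pseudocounts and filters, edgeR, DESeq2 1.42.0, single batches and sexes, and libraries left out. Scripts were tested on simulated data. Tables were made with pandas 2.3.3 and numpy 2.4.6 in Python 3.11.15, and plots with matplotlib 3.10.9. Each library is 1 mouse per the labels.

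Members, pathway lists and marker lists were chosen with earlier results of these data known. Values by library are given for Psmb5, Psmb6 and Psmb7 and for the 8 members ranked highest by the number of comparisons past the fold threshold. Ties were broken by mean absolute log2 fold change, by which Psme2, Psma2 and Psmd3 entered, since they passed that threshold in no comparison. Up to 3 members of each pathway list called in the most comparisons could be named, and other names there were chosen after their values were seen. Paaf1 was not analysed here, and 1 gene of the ubiquitin list is not reported here. Promoter windows are from RefSeq (GRCm38.p6) and gene positions from GENCODE vM21.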

Additional observations from a re-analysis of the deposited data

Results flagged for a closer look

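Of 39 groups of values examined for a library far from the others, 5 held one. The day 1 groups and most month 10 groups were too large for this check and were not examined, so D209074 and D209090 were outside it. By chance the cut is passed in about 1 in 20 groups of independent normal values, which genes of shared libraries are not. Psma6 in Mgmt-/- NDMA livers of day 5 read 859 in library D389096, with the next at 676. In WT NDMA livers of day 2 it read 757 in D215006, the library of fewest reads, with the next at 497. Psme1 in WT saline livers of day 2 read 286 in D215004, with the next at 194. The mean log2 value over the 34 members was 7.29 in the Mgmt-/- saline library D209001 of week 10, with the next lowest at 7.75. In the WT saline library D202011 of day 5 it was 7.66, with the next highest at 7.38.

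The effect of NDMA differed between day 1 and a later time, by the time by treatment term in limma, for 1 member in WT at week 10 (Psma2), 1 in Mgmt-/- at week 10 (Psmc6) and 2 in Mgmt-/- at month 10 (Psmb4 and Psmb7).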

How the results depend on the processing

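Of the alternative values computed, 1073 stayed near the value reported (counts within 1.5 times, medians within 1 SD of the spread) and 127 moved, of which 3 of 233 were medians; the cause was not tested for those that moved. The sign of the median changed in 26 of the 233. These were 16 of 28 in WT at day 5 (-0.034 to 0.12), 7 of 28 in Mgmt-/- at week 10 (-0.12 to 0.20, the latter under one total), and 1 each in WT at day 2 and week 10 and Mgmt-/- at month 10, and none in WT at day 1 or Mgmt-/- at day 1, day 2 or day 5. The median with age in Mgmt-/- saline livers went from 0.16 to -0.0037 under one total. Members past the fold threshold are meant unless stated. WT day 1 (0 higher) gave 1 in batch 191212Eng, 4 in batch 210901Eng and 19 with no fold threshold, and its median was 0.073 in batch 200803Eng. WT day 2 (1 higher, 0 lower) gave 3 under one total, 2 without libraries under 300000 reads, 2 in males alone and 3 with no fold threshold (1 lower). It gave 0 with no covariates, by edgeR, by DESeq2, without the columns of unrecovered reads, with log2 total reads as a term and in females alone, and 0 to 2 with 1 replicate left out. WT day 5 gave 1 higher and 1 lower in males alone.

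Mgmt-/- day 1 (2 higher) gave 12 under one total (median 0.51), 16 with no fold threshold, and 1 by edgeR, with log2 total reads as a term, in batch 200803Eng and without the saline library of the highest Psme1. Mgmt-/- day 2 (1 higher, 0 lower) gave 7 under one total (median 0.37), 2 under one total without the 50 most abundant genes, 2 in females alone, 12 with no fold threshold, and 1 to 3 higher and 0 to 1 lower with 1 replicate left out. It gave 1 lower with a mean of at least 20, with no covariates and by DESeq2. Mgmt-/- day 5 (4 higher) gave 1 in females alone, 1 in males alone and 14 with no fold threshold, and Mgmt-/- week 10 gave 1 in females alone. Members with a genotype term went from 0 to 2 at day 2 and 0 to 1 at day 5 by limma under one total, the latter also 1 without the kidney-transcript libraries. Those with a time term went to 7, 2 and 11 (WT week 10, Mgmt-/- week 10, Mgmt-/- month 10), and the 1 member past the fold threshold with age in WT saline livers to 0. By edgeR on whole reads at an adjusted p alone, 19, 0, 12, 9 and 10 members were higher in WT day 1 and day 2 and Mgmt-/- day 1, day 2 and day 5.

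Fits with log2 total reads, of the day 5 genotype term without kidney transcripts, without columns of unrecovered reads, with a time term and without the highest Psme1 library (and, in its batch, the libraries against their sex label) were chosen after seeing the data. No paired analysis was possible because each replicate label is a library number that no other library shares. Depth limits WT most, where the 4 shallow libraries held 150038 to 270673 reads. Single-sex and single-batch fits hold few libraries, and a count of 0 there is no sign of absence.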
